A study of Mus musculus with 4 samples.

Results

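DNA replication and S-phase genes were followed in spatial transcriptomes of muscle that forms bone after injury. The group held 38 genes of the 32285 features in each count table, chosen by symbol from the machinery that copies DNA, and each of the 38 had 10 UMIs or more in the 4 sections together. A UMI (unique molecular identifier) marks one captured RNA molecule. The genes cover 8 roles, namely origin licensing, helicase activation, polymerase and primase, the sliding clamp and its loaders, joining of Okazaki fragments, nucleotide supply and uracil removal, chromatin and histone supply, and G1/S control.

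Before a cell divides it must copy its genome once. In G1 the origin recognition complex, Cdc6 and Cdt1 load the Mcm2 to Mcm7 ring onto DNA, Cdc45 and the GINS complex turn the ring into a working helicase in S phase, and primase, the polymerases and the Pcna clamp then lay down new strands. Many of these genes are switched on by E2F transcription factors at the G1/S boundary, ahead of the mitosis genes, which peak in G2 and M. In injured muscle, dividing cells are known to include myoblasts, recruited and resident macrophages and stromal progenitors, and growing cartilage also contains dividing chondrocytes.

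The sections were fresh frozen tibial muscle of Nse-Bmp4 mice on C57BL/6, aged 6 to 8 weeks, a model of heterotopic ossification (HO) in which the rat neuron-specific enolase (Nse) promoter drives Bmp4. One section was uninjured (day 0) and the others were taken 1, 3 and 7 days after cardiotoxin injury, with 3 muscles mixed per group as the labels state. Every section carried the transgene, so there was no section of wild-type muscle. With 1 section per day the spread between animals is unknown, and no p-value is given. Intervals in parentheses are at 95% and cover counting error only. They also leave out that UMIs within a section come from the same animals, and differences between days cannot be told apart from differences between sections.

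Sections held 2107 to 3032 capture spots and 16777832 (day 1) to 56113066 (day 3) UMIs. A spot covers a small region of tissue that can hold several cells. Marker genes bore out the muscle label, since adult myofibre genes took 26.8% of UMIs before injury and 14.7%, 8.93% and 15.7% on days 1, 3 and 7. Macrophage markers summed to 341 CPM before injury and 909, 4049 and 1308 CPM on days 1, 3 and 7. Cartilage markers were at 5.99, 4.11 and 5.11 CPM in the first 3 sections and at 1748 CPM at day 7. CPM is UMIs scaled to a total of 1000000 UMIs of the section or of the spots named. In these sections more dividing cells and more RNA per dividing cell cannot be told apart.

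Promoter sequence was examined first, because the members moved together. RefSeq promoters (build GRCm38.p6, 250 bases before to 50 after a start site) were at hand for 31 of the 38 genes. The E2F words TTTCCCGC, TTTCGCGC, TTTGCCGC and TTTGGCGC were searched on both strands, where 2 words can overlap. At least 1 word lay in a promoter of 11 genes (35.5%), against 4.20% of genes with at least 10 UMIs. Counted by promoter, it was 30.6% of the 36 member promoters, against 2.26% of all 32851 promoters of the same length. Median GC was 63% in member promoters, 59.3% for genes with at least 10 UMIs and 52.7% in all promoters. The part of this in the shares was not tested. The 11 genes were Cdc6, Cdt1, Lig1, Mcm3, Mcm5, Mcm6, Mcm7, Orc1, Pola1, Pold1 and Uhrf1. Among the other replication genes listed for comparison the share was 33.3% (8 of 24), and in the mitosis list 5.56% (1 of 18). The CHR letters TTTGAA or TTTAAA, found in many mitosis promoters, were in 22.6% of member genes and 83.3% of mitosis genes, against 23.7% of genes with at least 10 UMIs. A match describes letters in a window and not a bound site.

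Sequence before the start site is printed for a pair of members that differ in these words. Mcm6, a subunit of the ring, had the most words of any member, at positions -110, -106 and -47 counted from the first transcribed base as 0. Rrm2, the regulatory subunit of ribonucleotide reductase, had the largest day 3 ratio of all members and none of the words in its window. The 250 bases of Mcm6 lie at chr1:128359706-128359955 on the minus strand and those of Rrm2 at chr12:24708004-24708253 on the plus strand. Capitals mark E2F words, and the first pair of Mcm6 words overlaps to give 1 run of capitals.
Mcm6: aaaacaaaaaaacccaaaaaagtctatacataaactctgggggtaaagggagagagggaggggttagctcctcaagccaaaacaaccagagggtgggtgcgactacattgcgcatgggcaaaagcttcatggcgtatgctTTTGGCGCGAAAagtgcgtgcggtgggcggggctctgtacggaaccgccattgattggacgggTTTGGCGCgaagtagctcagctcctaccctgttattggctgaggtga
Rrm2: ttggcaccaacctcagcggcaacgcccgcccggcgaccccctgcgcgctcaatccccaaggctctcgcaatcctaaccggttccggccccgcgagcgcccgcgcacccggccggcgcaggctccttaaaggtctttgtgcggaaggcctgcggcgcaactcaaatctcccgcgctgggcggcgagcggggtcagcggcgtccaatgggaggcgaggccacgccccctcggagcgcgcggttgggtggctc

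Summed over the 38 genes, replication RNA was lowest in uninjured muscle, already higher 1 day after injury and highest at day 3. The sum was 222 CPM before injury and 555, 978 and 432 CPM on days 1, 3 and 7. The ratio to uninjured muscle was 2.5 (2.43 to 2.57) on day 1. It was 4.4 (4.31 to 4.5) on day 3 and 1.95 (1.9 to 1.99) on day 7. Of the 38 genes, 29 were at least 2-fold higher than day 0 at day 1, against 23.7% of 17250 genes with at least 10 UMIs. At day 3 the count was 36, against 31.9% of genes, and at day 7 it was 25, against 32.0%. The median log2 ratio of the members was 1.53, 2.54 and 1.27 at days 1, 3 and 7, and that of all genes was 0.27, 0.55 and 0.64.

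No member was at least 2-fold lower than day 0 in any injured section, against 9.93%, 8.53% and 2.13% of all genes at days 1, 3 and 7. From day 1 to day 3, 11 members were at least 2-fold higher (16.6% of all genes) and none 2-fold lower (8.48%). From day 3 to day 7, 28 members were at least 2-fold lower (11.4% of all genes) and none 2-fold higher (16.5%). By CPM, day 3 was the highest section for 37 of the 38 genes, and Ung was highest at day 7.

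Another scaling gave smaller changes, and sections differed in myofibre share as given above. edgeR TMM factors moved all log2 ratios to day 0 by -0.19, -0.55 and -0.61 on days 1, 3 and 7. With them the sum at day 7 was 1.28 times day 0, and 6 members, not 25, were at least 2-fold higher. At days 1 and 3 the counts with TMM factors were 25 and 33. The share of all genes past 2-fold was not counted with these factors, so these counts have no share to be set against. From day 1 to day 3 they left 6 members at least 2-fold higher, not 11, namely Ccne1, Dscc1, Dut, Mcm10, Rrm2 and Tyms, and from day 3 to day 7 they kept the count of 28. Day 3 was then the highest section for 34 genes, with Pcna and Cdt1 highest at day 1 and Pola2 at day 0.

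**Figure D1:**
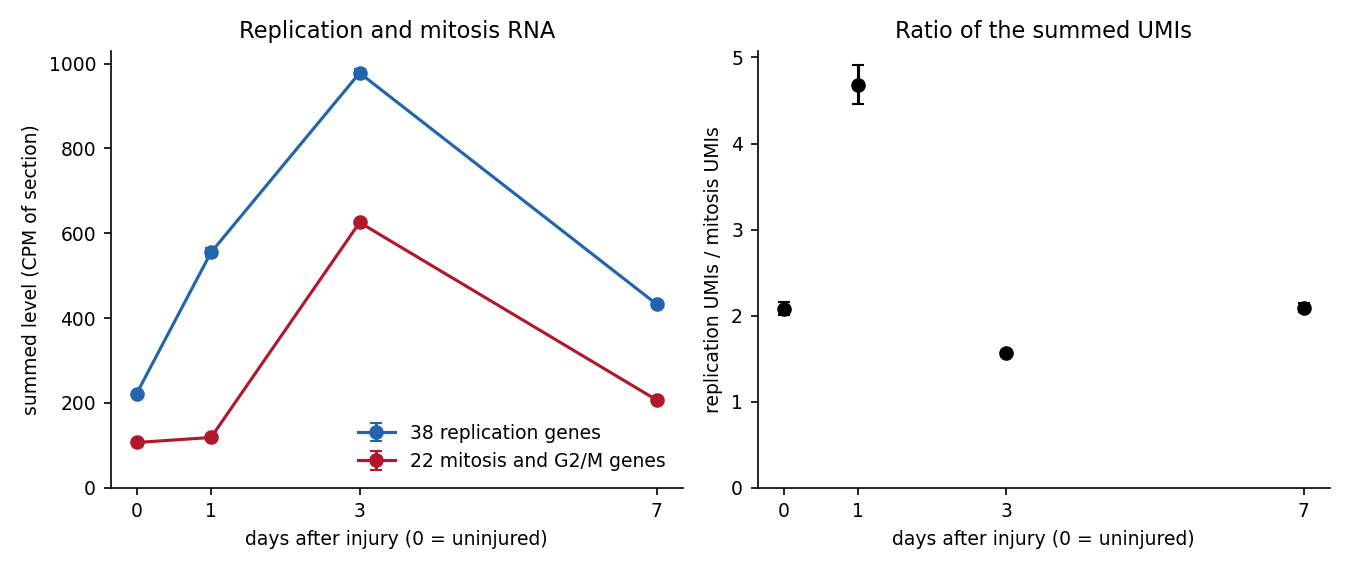
Left, summed CPM of 38 replication genes (blue) and 22 mitosis and G2/M genes (red) in the section of each day, and right, replication UMIs divided by mitosis UMIs, with 95% counting intervals and 1 section per day. Replication RNA was 2.50 times day 0 at day 1, where mitosis RNA was 1.11 times day 0, and the ratio of the sums was highest there.

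Replication RNA ran ahead of mitosis RNA at day 1. The 22 mitosis and G2/M genes, fixed as a comparison list, summed to 107 CPM before injury and 119, 625 and 207 CPM on days 1, 3 and 7. Replication UMIs divided by mitosis UMIs, a ratio that no scaling to a total can change, was 2.08 (2.01 to 2.15) before injury. It was 4.68 (4.45 to 4.91) on day 1, 1.56 (1.54 to 1.58) on day 3 and 2.09 (2.04 to 2.15) on day 7. Of the 22 mitosis genes, 1 was at least 2-fold higher at day 1, the kinase gene Aurkb (log2 ratio 1.29), against 23.7% of all genes. All 22 were at day 3, against 31.9% of all genes. Mki67, the proliferation marker, was at 11.6 CPM before injury and 8.28, 37.5 and 16.1 CPM on days 1, 3 and 7. Ccnb1, the mitotic cyclin, was at 3.35 CPM before injury and 3.52, 30.9 and 8.18 CPM on days 1, 3 and 7. By CPM at day 1, Mki67 was lower than in uninjured muscle and Ccnb1 was near its uninjured level, while both were several times higher at day 3. The median member reached 55.8% of its day 3 level at day 1, and the median mitosis gene 17.1%.

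Origin licensing genes were higher in every injured section. Their sum was 52.1 CPM before injury and 162, 276 and 112 CPM on days 1, 3 and 7. Of the 10 genes, 9, 10 and 8 were at least 2-fold higher than day 0 at days 1, 3 and 7, against 23.7%, 31.9% and 32.0% of all genes. Cdt1, which loads the Mcm ring in G1, was at 2.92 CPM before injury and 21.2, 25.3 and 8.15 CPM on days 1, 3 and 7. Its day 1 log2 ratio of 2.86 (2.56 to 3.16) was the largest of any member on that day. Cdc6, its partner in loading, was at 1.34 CPM before injury and 4.11, 7.72 and 3.23 CPM on days 1, 3 and 7. Orc1, the subunit of the origin complex that varies with the cell cycle, was at 0.205 CPM before injury and 1.25, 1.92 and 0.622 CPM on days 1, 3 and 7, from 9, 21, 108 and 26 UMIs. It was the only member with fewer than 10 UMIs in a section. Orc6 was at 6.15 CPM before injury and 9.6, 18.6 and 9.04 CPM on days 1, 3 and 7, and its log2 ratio at day 7, 0.55, turned below 0 with TMM factors.

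The ring subunits moved as a block. Mcm2 was at 8.84 CPM before injury and 20.4, 36 and 15.2 CPM on days 1, 3 and 7. Mcm3 was at 6.18 CPM before injury and 22.8, 36.6 and 12.6 CPM on days 1, 3 and 7. Mcm5 was at 4.97 CPM before injury and 19.5, 34.5 and 15.5 CPM on days 1, 3 and 7. Each was lowest at day 0, highest at day 3 and between these at days 1 and 7, with day 1 above day 7. Mcm6, whose promoter held 3 E2F words, was at 6.95 CPM before injury and 24.1, 43.7 and 16.3 CPM on days 1, 3 and 7. Mcm4 was at 4.01 CPM before injury and 12.5, 25.4 and 10.4 CPM on days 1, 3 and 7, and Mcm7 at 10.5 CPM before injury and 26.4, 46.6 and 21.4 CPM on days 1, 3 and 7. The day 3 log2 ratios of the 6 subunits lay between 2.02 (Mcm2) and 2.8 (Mcm5).

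Helicase activation genes were low in number of UMIs but had the largest median ratio at day 3 of the roles with at least 3 genes, 3.08 on the log2 scale. Gins2, a subunit of the GINS complex, was at 1.07 CPM before injury and 7.69, 14.4 and 3.82 CPM on days 1, 3 and 7. Its log2 ratio was 2.84 (2.35 to 3.36) at day 1 and 3.75 (3.33 to 4.21) at day 3. Gins1, another subunit, was at 1.48 CPM before injury and 4.95, 9.43 and 4.16 CPM on days 1, 3 and 7. Cdc45, which joins GINS and the ring, was at 2.69 CPM before injury and 5.13, 12 and 6.57 CPM on days 1, 3 and 7, and its day 1 ratio stayed under 2-fold. Mcm10, needed to fire licensed origins, was at 0.547 CPM before injury and 1.91, 6.15 and 1.34 CPM on days 1, 3 and 7, with a day 3 log2 ratio of 3.49 (2.89 to 4.15).

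The polymerase and primase genes held the member that stood apart from the others. Prim1, the catalytic primase subunit, was at 1.64 CPM before injury and 4.83, 9.93 and 3.18 CPM on days 1, 3 and 7. Pole and Pold1, the catalytic subunits of the leading and lagging strand polymerases, were at 7.68 and 19.5 CPM at day 3, with log2 ratios of 2.02 and 1.89. Pola1, the catalytic subunit of polymerase alpha, was at 2.07 CPM before injury and 3.22, 7.18 and 3.99 CPM on days 1, 3 and 7. Pola2, its accessory subunit, was at 18.7 CPM before injury and 13.1, 22.2 and 20.7 CPM on days 1, 3 and 7. Pola2 was thus lower at day 1, with a log2 ratio of -0.51 (-0.73 to -0.29), and close to day 0 at days 3 and 7, with 0.25 and 0.15, 2 small increases that turned below 0 with TMM factors, DESeq2 size factors and a total that leaves out mitochondrial, haemoglobin and adult myofibre genes. Its window held none of the E2F words, but neither did those of most members with a promoter at hand, Rrm2 among them.

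Among clamp and clamp loader genes, Pcna gave 13.1% of all member UMIs. Pcna, the sliding clamp, was at 32.4 CPM before injury and 109.7, 119.7 and 50.7 CPM on days 1, 3 and 7. Its day 1 level was 91.7% (87 to 96.5) of the day 3 level by CPM, and above the day 3 level with TMM factors. Without Pcna the day 1 sum was 2.34 times day 0. Rfc2, Rfc4 and Rfc5 encode clamp loader subunits. Rfc5 had the largest day 3 log2 ratio of the 3 (3.01) and Rfc4 the smallest (1.38), and Rfc4 was near day 0 again at day 7, with a log2 ratio of 0.10 (-0.15 to 0.35) that turned below 0 with TMM factors. Dscc1, part of an alternative clamp loader, was at 0.365 CPM before injury and 0.954, 2.64 and 0.645 CPM on days 1, 3 and 7. For the joining of Okazaki fragments, the flap nuclease Fen1 was at 5.08 CPM before injury and 11.1, 17.8 and 13 CPM on days 1, 3 and 7, and the ligase Lig1 at 3.19 CPM before injury and 12.8, 21.7 and 10.1 CPM on days 1, 3 and 7.

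Among nucleotide supply genes, Rrm2, Dut and Tyms were late and Ung was highest at day 7. Rrm2 was at 4.83 CPM before injury and 17.2, 77.6 and 14 CPM on days 1, 3 and 7. Its day 3 log2 ratio of 4.01 (3.81 to 4.21) was the largest of the 38, and its day 1 level was 22.1% (19.6 to 24.9) of that of day 3. Dut, which removes dUTP, was at 10.3 CPM before injury and 23.7, 69.9 and 14.3 CPM on days 1, 3 and 7, and Tyms, which makes dTMP, at 3.6 CPM before injury and 10.3, 27.4 and 10.2 CPM on days 1, 3 and 7. Rrm1, the large subunit of ribonucleotide reductase, was at 22.6 CPM before injury and 31.6, 61.6 and 30.8 CPM on days 1, 3 and 7. The day 7 log2 ratios of Dut (0.47) and Rrm1 (0.45) turned below 0 with TMM factors. Ung, the uracil glycosylase, was at 5.81 CPM before injury and 6.56, 6.42 and 9.23 CPM on days 1, 3 and 7. With TMM factors its day 1 and day 3 log2 ratios, 0.17 and 0.14, turned below 0.

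Chromatin genes and G1/S regulators were also higher. Uhrf1, which brings the maintenance DNA methyltransferase to new strands, was at 3.08 CPM before injury and 12, 25.4 and 6.93 CPM on days 1, 3 and 7. Chaf1a and Chaf1b, the large subunits of the chromatin assembly factor, had day 3 log2 ratios of 2.45 and 2.72. Slbp, which binds histone mRNA, was at 10.8 CPM before injury and 19.4, 29.7 and 22.1 CPM on days 1, 3 and 7. Ccne1, a G1/S cyclin, was at 1.12 CPM before injury and 3.52, 17.1 and 4.37 CPM on days 1, 3 and 7. Its day 3 log2 ratio of 3.94 (3.52 to 4.38) exceeded that of its paralog Ccne2, 1.63 (1.35 to 1.92). E2f1 was at 3.9 CPM before injury and 8.88, 13.5 and 11.1 CPM on days 1, 3 and 7.

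**Figure D2:**
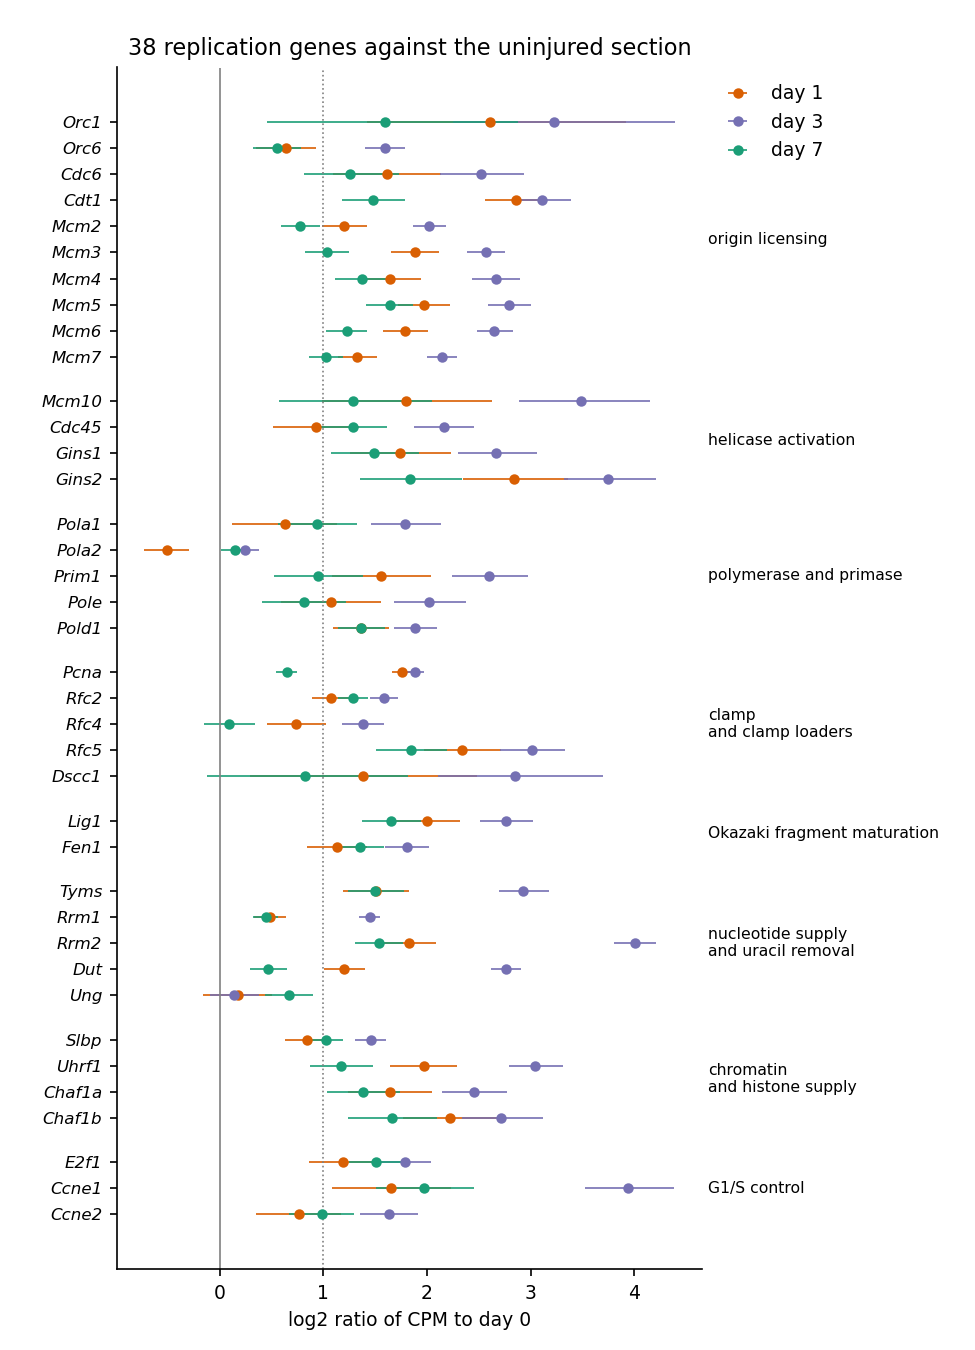
log2 ratio of CPM to the uninjured section for 38 replication genes, grouped by role, at day 1 (orange), day 3 (purple) and day 7 (green), with 95% counting intervals, a solid line at 0 and a dotted line at 2-fold. Day 3 lay farthest right for all genes but Ung, and Pola2 was the only gene left of 0 at day 1. With TMM factors day 3 was highest for 34 genes, and Ung too was below 0 at day 1.

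Members therefore differed in timing. By CPM at day 1, 3 genes were at 80% or more of their day 3 level, namely Pcna, Cdt1 (83.8% (74.4 to 94.2)) and Ung. Under 40% were 6 genes, namely Ccne1 (20.6% (15.5 to 26.7)), Rrm2, Mcm10, Dut, Dscc1 and Tyms. Against day 7, day 1 was higher for 18 genes and lower for 6 with an interval clear of 1. The 6 were Cdc45, E2f1, Pola2, Rfc2, Slbp and Ung. These counts depended on the scaling. With TMM factors 13 genes were at 80% or more of day 3 and 3 under 40%, namely Ccne1, Mcm10 and Rrm2. Against day 7, 29 genes were then higher at day 1 and 1, Pola2, was lower. After thinning every spot to 2000 UMIs, at least 1 Pcna UMI was in 6.43% of spots before injury and in 19.4%, 18.2% and 8.98% on days 1, 3 and 7. For Rrm2 the shares were 0.952%, 3.63%, 10.9% and 2.49%. Thinning left out the shallower spots, 513 of 2667 at day 1 and 9 of 3029 at day 3. Among the spots kept, at equal depth, Pcna was as widespread at day 1 as at day 3, and Rrm2 was not.

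Other genes of the pathway were read from lists that hold no member. Of 32 further replication genes, 14, 23 and 14 were at least 2-fold higher than day 0 at days 1, 3 and 7, against 23.7%, 31.9% and 32.0% of all genes. None was 2-fold lower, against 9.93%, 8.53% and 2.13%, and the median log2 ratios were 0.90, 1.72 and 0.80. Gmnn, the inhibitor of Cdt1, was at 3.51 CPM before injury and 12.5, 20.4 and 6.77 CPM on days 1, 3 and 7. Tk1, the thymidine kinase, was at 5.33 CPM before injury and 13.8, 37.6 and 8.2 CPM on days 1, 3 and 7. Of 12 G1 cyclins, kinases and other E2F genes, 5, 10 and 5 were at least 2-fold higher at these days, against the same shares of all genes. Myc was at 5.52 CPM before injury and 32.2, 32.5 and 20.9 CPM on days 1, 3 and 7, and Cdk4, the G1 kinase, at 27.3 CPM before injury and 73.9, 153 and 79.5 CPM on days 1, 3 and 7. Of 10 inhibitors of cyclin-dependent kinases and pocket proteins, 0, 5 and 3 were at least 2-fold higher at days 1, 3 and 7, against 23.7%, 31.9% and 32.0% of all genes, with median log2 ratios of 0.22, 0.88 and 0.74. At day 1, 2 were at least 2-fold lower, against 9.93% of all genes. These were Cdkn1c, at 95 CPM before injury and 12.8, 40.4 and 70.9 CPM on days 1, 3 and 7, and Cdkn1b, at 31 CPM before injury and 13.8, 22 and 37.6 CPM on days 1, 3 and 7. Cdkn1a was at 64.4 CPM before injury and 118, 156 and 90.3 CPM on days 1, 3 and 7.

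Within each section, replication RNA lay away from intact fibres. Spots were ordered by the share of adult myofibre UMIs and cut into 10 equal parts (deciles). At day 3 the decile with the least myofibre RNA held 1948 CPM of member RNA and the decile with the most 281. At day 1 these were 1135 and 256 CPM, at day 7 893 and 224, and at day 0 301 and 163. The richest myofibre decile thus differed by under 2-fold between days, and the poorest decile by more. Ordered by macrophage markers, the day 3 deciles ran from 295 CPM in the lowest to 1716 in the ninth and 1649 in the richest. By myoblast markers they ran from 513 to 1382 CPM. Along cartilage markers the day 7 level was 289 CPM in the lowest decile, 335 in the fifth, 517 in the ninth and 904 in the richest. Abundant myofibre RNA lowers the CPM of all other genes. With a total that leaves out mitochondrial, haemoglobin and adult myofibre genes, the poorest and richest myofibre deciles of day 3 held 2001 and 463 CPM, and those of day 1 1273 and 424.

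**Figure D3:**
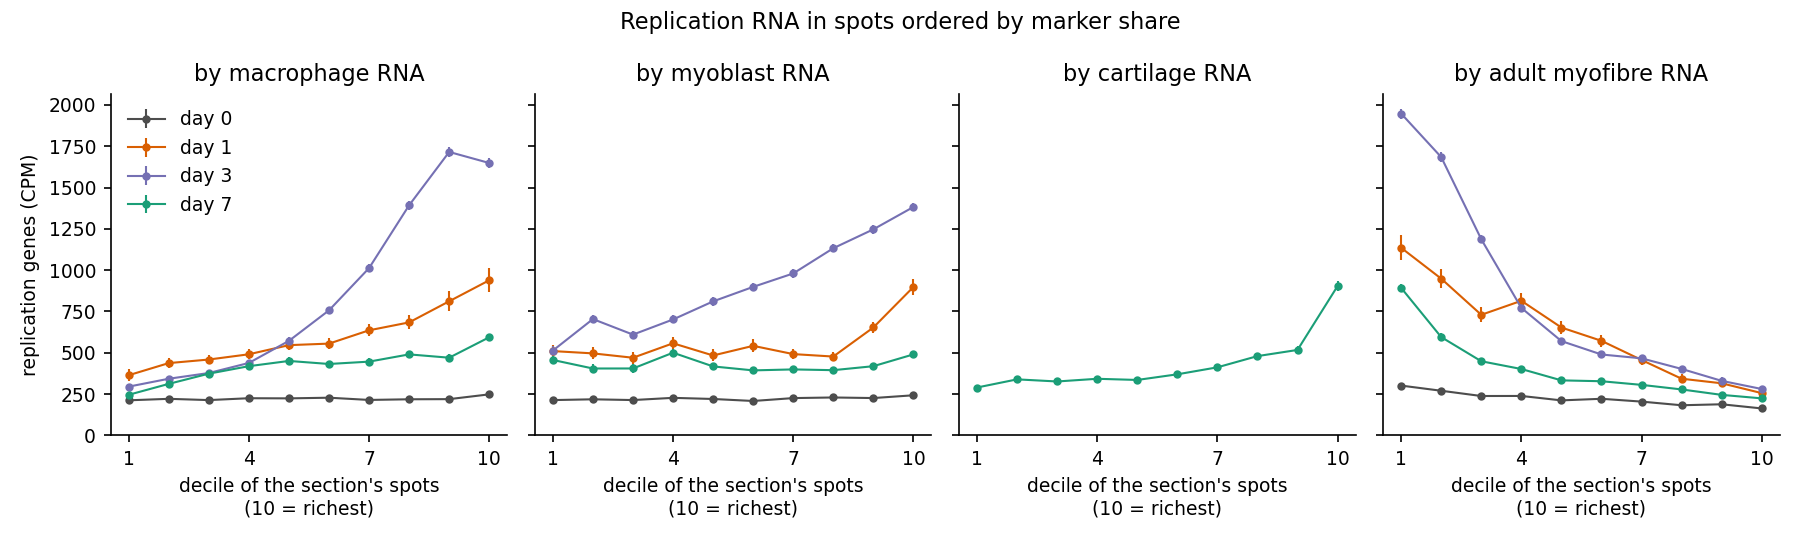
Member CPM in deciles of each section's spots, ordered by the share of macrophage, myoblast, cartilage (day 7 only) or adult myofibre marker UMIs, with 95% counting intervals. At day 3 the level ran from 295 to 1649 CPM along macrophage RNA and from 1948 to 281 along myofibre RNA, and at day 7 the richest cartilage decile held 904 CPM.

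Marker spots were the richest 10% of a section by the share of a marker list, with at least 3 of its UMIs. They are regions rich in a marker set and not cells of that type, and the limit cuts a continuous range, with 243 spots within 10% of the macrophage limit at day 3 and 55 within 10% of the cartilage limit at day 7. Macrophage spots held more member RNA than the other spots of their section, by a ratio of 1.76 (1.62 to 1.9) on day 1, 1.9 (1.86 to 1.94) on day 3 and 1.45 (1.39 to 1.5) on day 7. Before injury it was 1.12 (1.05 to 1.2). For myoblast spots the ratios in the same order were 1.82 (1.71 to 1.95), 1.54 (1.51 to 1.57), 1.16 (1.11 to 1.21) and, before injury, 1.1 (1.02 to 1.18). The day 0 values were close to 1 and the day 1 and day 3 values were not. Limits were set within each section, so spots of different days were not alike in marker level. For macrophage spots the limit was 753, 3156, 7470 and 2470 CPM of the markers at days 0, 1, 3 and 7. For myoblast spots it was 271, 307, 1023 and 378 CPM. The median gene was also above 1 in these spots. In macrophage spots the median ratio of all genes was 1.15, 1.43, 1.34 and 1.26 at days 0, 1, 3 and 7. That of the members was 1.17, 1.78, 1.93 and 1.38. In myoblast spots the median of all genes was 1.001, 1.126, 1.205 and 1.157 on these days. That of the members was 1.039, 1.744, 1.474 and 1.167. Part of the macrophage ratios was thus shared by most genes, and at day 7 members in myoblast spots were close to all genes. Cartilage spots existed in number only at day 7, when the ratio was 2.37 (2.29 to 2.46). Fewer than 20 spots qualified on the earlier days, and no ratio was taken there.

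At day 3, macrophage spots carried 23.8% of member UMIs and 14.1% of all UMIs of the section, and myoblast spots 23.2% and 16.4%. The classes were largely different spots under the 10% limit, but myoblast spots were not free of macrophage RNA. They held 4723 CPM of macrophage markers, against 4049 in the whole section, and which cells carried the member RNA was not tested. Member RNA was 1655 CPM in the 276 spots of the macrophage class alone, 1359 in the 277 of the myoblast class alone, 1648 in the 22 of both, and 761 in the 2443 spots of no class. Day 1 macrophage spots were shallow, with a median of 1875 UMIs against 6796 elsewhere. Thinning to 2000 UMIs kept 117 of these 248 spots, with a ratio of 1.84, and thinning to 1000 UMIs kept 193, with a ratio of 1.57.

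These spots also held less myofibre RNA. At day 3 adult myofibre genes took 1.52% of UMIs in macrophage spots and 10.1% outside, and at day 7 6.2% in cartilage spots and 16.7% outside. Within the 25% of spots with the least myofibre RNA, the macrophage ratio was 1.12 (1.02 to 1.24) on day 1, 0.975 (0.954 to 0.996) on day 3 and 0.916 (0.874 to 0.961) on day 7. The myoblast ratio there was 1.33 (1.19 to 1.5), 0.926 (0.905 to 0.948) and 0.821 (0.778 to 0.866). At days 3 and 7 these ratios lay below 1. The cartilage ratio at day 7 was 1.61 (1.54 to 1.68). Myofibre shares still differed within this 25%, at 5.11% in cartilage spots of day 7 and 8.60% in the others. At day 3 they were 1.22% in macrophage spots against 2.02%, and 2.22% in myoblast spots against 1.49%. Some of the marker spot ratios had another direction in spots with more myofibre RNA. In the next 25% of spots the myoblast ratio was 1.39 (1.27 to 1.52) on day 1, 1.25 (1.2 to 1.31) on day 3 and 1.21 (1.13 to 1.3) on day 7. The macrophage ratio there was 0.98 (0.769 to 1.23) on day 1, 0.988 (0.868 to 1.12) from 21 spots on day 3 and 1.23 (1.11 to 1.35) on day 7. The cartilage ratio there was 1.27 (1.09 to 1.46) from 27 spots on day 7. In the 25% after that, the day 7 ratios were 1.22 (1.03 to 1.44) for macrophage and 0.973 (0.843 to 1.12) for myoblast spots, and the myoblast ratio in the 25% with the most myofibre RNA was 1.25 (1.04 to 1.49).

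**Figure D4:**
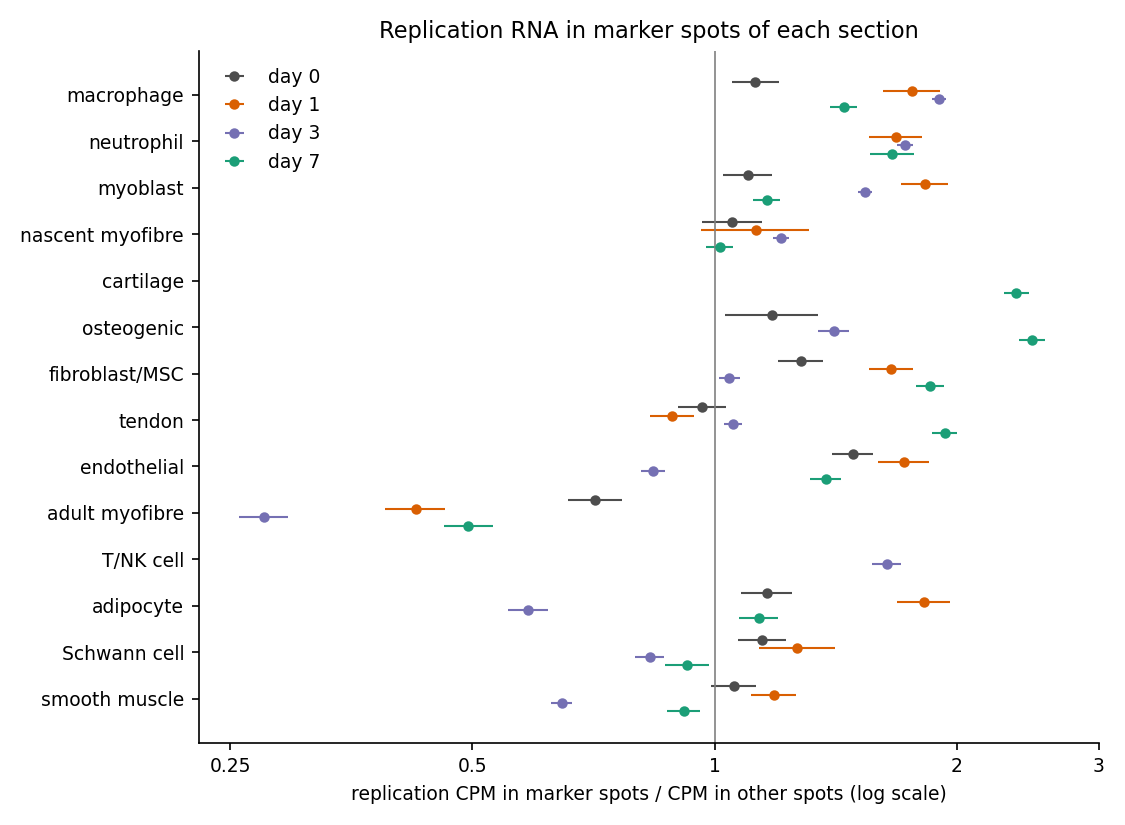
Member CPM in marker spots divided by member CPM in the other spots of the same section, on a log axis, for 14 marker lists and the 4 days, with 95% counting intervals. Classes under 20 spots have no point. Cartilage and osteogenic spots of day 7 lay farthest right, at 2.37 and 2.48, and adult myofibre spots of day 3 farthest left, at 0.275.

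Gene by gene, 15 members were at least 2-fold higher in day 3 macrophage spots than in other spots, against 16.0% of genes, with a median ratio of 1.93 for members and 1.34 for all genes. Dscc1 had the largest ratio, with 6.57 CPM inside and 1.99 outside, a ratio of 3.3 (2.31 to 4.67). Cdt1 followed, with 52.5 CPM inside and 20.8 outside, a ratio of 2.53 (2.25 to 2.84). Pola2 was the only member not higher there, with 20.7 CPM inside and 22.4 outside, a ratio of 0.923 (0.778 to 1.09). In day 3 myoblast spots 1 member was at least 2-fold higher, against 6.81% of genes, and this was Rrm2, with 139 CPM inside and 65.5 outside, a ratio of 2.13 (2.0 to 2.28). Ccne1 was next, with 29.4 CPM inside and 14.7 outside, a ratio of 2.0 (1.73 to 2.3). The order of genes thus differed between the classes, with Cdt1 at a ratio of 2.53 in macrophage and 1.37 in myoblast spots, and Rrm2 at 1.88 and 2.13. Whether this difference exceeds that between animals was not tested.

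At day 1, 13 members were at least 2-fold higher in macrophage spots, near the 32.3% of all genes. E2f1 had the largest ratio, with 33.6 CPM inside and 7.83 outside, a ratio of 4.29 (2.63 to 6.74). Rfc4 had the smallest, 0.139, and 29 of the 38 members were above 1, against 68.0% of genes. Myoblast markers summed to 104 CPM in the day 1 section, below the 135 CPM before injury. The 118 myoblast spots of day 1 held 599 CPM of these markers, and a spot qualified with as few as 3 of their UMIs. In those spots 12 members were at least 2-fold higher, against 8.22% of genes, with a median ratio of 1.74 for members and 1.13 for all genes. Uhrf1 was among them, with 32.4 CPM inside and 10.7 outside, a ratio of 3.04 (2.04 to 4.41), and so was Rrm2, with 43.9 CPM inside and 15.4 outside, a ratio of 2.85 (2.03 to 3.92). Mitosis RNA was also higher in these spots, by a ratio of 2.73 (2.41 to 3.08). Replication over mitosis UMIs was 3.29 (2.9 to 3.76) inside and 4.93 (4.67 to 5.19) outside them, and for day 1 macrophage spots 5.35 (4.4 to 6.55) inside and 4.63 (4.41 to 4.87) outside. At day 1 the excess of replication over mitosis RNA was thus smaller in myoblast spots than elsewhere, and above the uninjured section in all of these spots. At day 7, 4 members were at least 2-fold higher in macrophage spots, namely Mcm10, Cdt1, Rfc5 and Lig1, a smaller share than the 13.1% of all genes. In myoblast spots there was 1, Dscc1, from 7 UMIs inside, a smaller share than the 8.42% of all genes.

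In cartilage spots of day 7 nearly all members were higher. There 33 of the 38 members were at least 2-fold higher than in other spots, against 20.5% of genes, with a median ratio of 2.57 for members and 1.27 for all genes. Chaf1a had 19 CPM inside and 4.32 outside, a ratio of 4.4 (3.31 to 5.8). Uhrf1 had 21.2 CPM inside and 5.38 outside, a ratio of 3.94 (3.03 to 5.09). Both act on newly made chromatin, and Rrm2 and Mcm5 came next, at ratios of 3.53 and 3.45. The 5 members under 2-fold were Pola2 (1.06), Rrm1 (1.55), Orc6 (1.77), Pcna (1.79) and Dut (1.92). Pcna had 84.3 CPM inside and 47 outside, a ratio of 1.79 (1.59 to 2.01).

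Mitosis RNA was enriched further than replication RNA in the same spots, by a ratio of 3.95 (3.77 to 4.13). Replication over mitosis UMIs was 1.43 (1.36 to 1.5) inside and 2.38 (2.31 to 2.45) outside. Cartilage spots alone held 914 CPM of member RNA, macrophage spots alone 611, myoblast spots alone 439 and spots of no class 338. Myoblast spots of day 7 also held 2250 CPM of macrophage markers, against 1308 in the whole section. Osteogenic spots of day 7 were rich in cartilage RNA as well, at 11322 CPM of cartilage markers, and gave a like ratio, 2.48 (2.39 to 2.57).

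**Figure D5:**
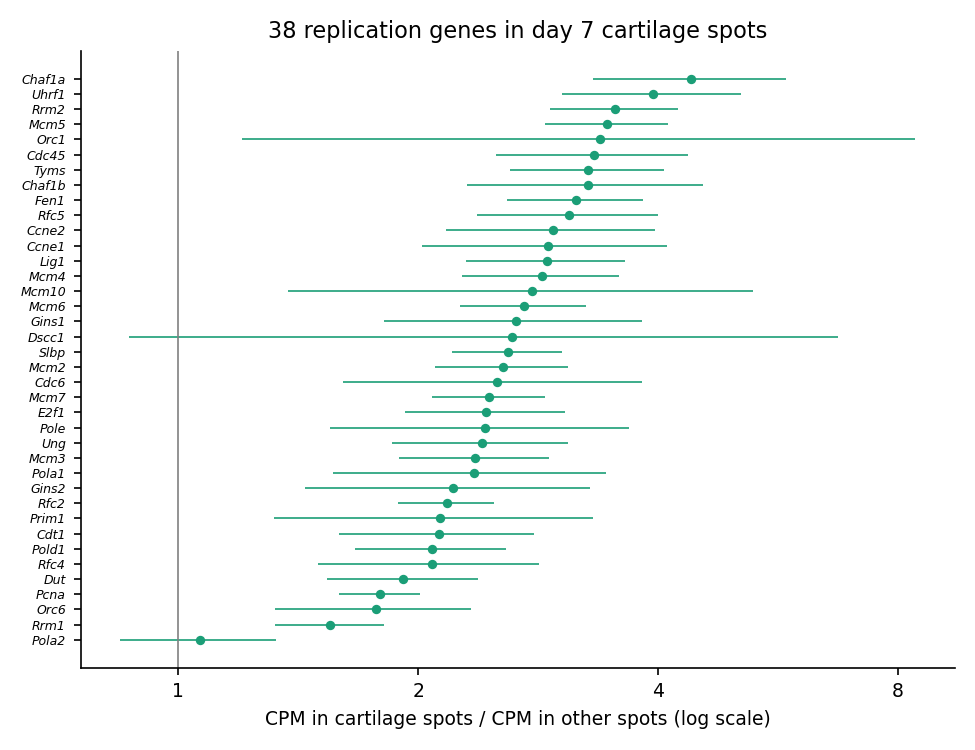
CPM in cartilage marker spots of day 7 divided by CPM in the other spots of that section, for each of 38 replication genes in order of the ratio, on a log axis with 95% counting intervals. All 38 points lay above 1, from Pola2 at 1.06 to Chaf1a at 4.4, and the intervals of Pola2 and Dscc1 reached below 1.

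Replication RNA was spread over many spots. With each spot thinned to 2000 UMIs, which left out 9 to 513 shallower spots per section, at least 1 member UMI was found in 34.7% of spots before injury and in 61%, 68.7% and 51.6% on days 1, 3 and 7. Unthinned, the shares were 91.4%, 81.6%, 96.6% and 90.5%, an order that the depth of the sections sets in part. At 2000 UMIs the share in macrophage spots of day 3 was 93.5%, against 65.9% outside. In cartilage spots of day 7 it was 80.5%, against 48.4% outside.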

How the data were processed

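Spatial RNA was measured on 4 sections, 1 per day. The authors deposited unnormalised UMI counts for each gene and spot, made with Space Ranger 1.2.0 per the file headers. The submitters' processing notes name mm10. The labels and the methods name other software versions, and the labels mention down-sampling of reads, although the deposited totals differed between sections. All 10835 spots were used, no doublet caller was run, and spot positions were not used here. Sections share array barcodes (1539 to 2311 per pair), which are fixed positions of the array and not shared cells.

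Counts were summed per section or spot class and scaled to CPM. Intervals at 95% were exact Poisson for levels, exact binomial (Clopper-Pearson) for shares, and binomial for ratios of counts. A gene with under 3 UMIs was entered at 3 UMIs in a ratio between days. Spots were thinned in 20 draws with seed 1. Members, marker lists and pathway lists were chosen with earlier results of these data known. All 38 members are reported, genes of the fixed lists may be named, and every other gene would be named as chosen after its values were seen. Scaling factors came from edgeR 4.0.16 and DESeq2 1.42.0 under R 4.3.3. All other steps used Python 3.11.15 with pandas 2.3.3, NumPy 2.4.6 and SciPy 1.17.1, and matplotlib 3.10.9 drew the plots. Calculations were tested on simulated data. Settings tried were both sets of factors, a total that leaves out mitochondrial, haemoglobin and adult myofibre genes, spot depth, fold and spot class limits, thinning depth, and leaving out the most abundant gene. The subsets of 25% of spots by myofibre RNA, and the other scalings and 4-fold limit for steps between injured days and for the timing of genes, were added after seeing the data.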

Additional observations from a re-analysis of the deposited data

Results flagged for a closer look

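Member RNA in some marker spots was above the other spots of the section on one day and below them on another, with counting intervals clear of 1. These differences between days were not tested, since each day had 1 section. In endothelial spots the ratio was 1.48 before injury and 1.72, 0.838 and 1.37 on days 1, 3 and 7. In adipocyte spots it was 1.16, 1.82, 0.586 and 1.13 on the same days, and in Schwann cell spots 1.15, 1.27, 0.83 and 0.924. In smooth muscle spots it was 1.18, 0.645 and 0.915 on days 1, 3 and 7. Tendon spots went the other way, with 0.885, 1.05 and 1.93 on those days. Those tendon spots of day 7 also held 4606 CPM of cartilage markers, and the part of this overlap in the ratio was not tested. Myofibre genes took 7.16% of UMIs in adipocyte spots and 15.1% outside at day 1, and 13.7% and 8.75% at day 3. The part of this in the ratios was not tested. Without mitochondrial, haemoglobin and adult myofibre genes in the total, 2 intervals included 1. These were tendon at day 3, 1.01 (0.982 to 1.03), and adipocyte at day 7, 1.06 (0.9995 to 1.12).

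By CPM, Pola2 was the member whose direction differed between days, with log2 ratios to day 0 of -0.51, 0.25 and 0.15 on days 1, 3 and 7. With TMM factors, DESeq2 size factors and a total that leaves out mitochondrial, haemoglobin and adult myofibre genes, Pola2 was lower than day 0 on all of these days. With TMM factors it was instead Dut, Orc6, Rfc4, Rrm1 and Ung whose direction differed between days. None of these differences was tested.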

How the results depend on the processing

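No paired analysis was possible because each day had 1 section, and no section could be left out. The summed ratio to day 0 at days 1, 3 and 7 was 2.19, 3.0 and 1.28 with TMM factors, 2.19, 2.98 and 1.25 with DESeq2 size factors, 2.2, 3.3 and 1.6 with a total that leaves out mitochondrial, haemoglobin and adult myofibre genes, 2.34, 4.52 and 2.01 without Pcna, and 2.89, 5.83 and 2.42 as the median member, always above 1. At day 7, 6 members were at least 2-fold higher with either set of factors, and 0 at a 4-fold limit, which left 6 at day 1 and 25 at day 3. From day 1 to day 3, 6 members, not 11, were at least 2-fold higher with TMM factors, DESeq2 size factors or the reduced total, and 2 at a 4-fold limit. From day 3 to day 7, 4 members, not 28, were lower at a 4-fold limit. The other counts of members past 2-fold between days stayed within 1.5 times. The share of all genes was counted only by CPM at 2-fold, and not at the other scalings or limits. With DESeq2 size factors and the reduced total, 13 and 6 genes were at 80% or more of day 3 at day 1, 2 and 4 under 40%, and 30 and 20 higher and 0 and 2 lower than at day 7.

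Ratios in marker spots were 1.7, 1.68 and 1.43 for macrophage spots of days 1, 3 and 7, 1.91, 1.57 and 1.24 for myoblast spots, and 2.59 for cartilage spots of day 7 in the richest 5%. They were 1.67, 2.33 and 1.33 for macrophage spots of days 1, 3 and 7, 1.65, 1.59 and 1.09 for myoblast spots, and 1.93 for cartilage spots of day 7 in the richest 20%. With 1 limit for all sections they were 1.66, 2.67 and 1.52 for macrophage spots of days 1, 3 and 7, 1.86, 1.64 and 1.27 for myoblast spots, and 1.73 for cartilage spots of day 7. With the reduced total they were 1.37, 1.52 and 1.23 for macrophage spots of days 1, 3 and 7, 1.7, 1.32 and 1.02 for myoblast spots, and 1.87 for cartilage spots of day 7. With spots of 1 class against spots of none they were 1.87, 2.17 and 1.81 for macrophage spots of days 1, 3 and 7, 1.9, 1.79 and 1.3 for myoblast spots, and 2.7 for cartilage spots of day 7. At 2000 UMIs per spot they were 1.84, 2.2 and 1.48 for macrophage spots of days 1, 3 and 7, 1.66, 1.73 and 1.12 for myoblast spots, and 2.49 for cartilage spots of day 7. In the 25% of spots with the least myofibre RNA they were 1.12, 0.975 and 0.916 for macrophage spots of days 1, 3 and 7, 1.33, 0.926 and 0.821 for myoblast spots, and 1.61 for cartilage spots of day 7, so the macrophage and myoblast ratios of days 3 and 7 turned below 1. In the next 25% they were 0.98, 0.988 and 1.23 for macrophage spots of days 1, 3 and 7, 1.39, 1.25 and 1.21 for myoblast spots, and 1.27 for cartilage spots of day 7. The cause was not tested. Under 20 macrophage spots qualified at day 0 with 1 limit, so no value was taken.

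Without the most abundant gene of each list, replication over mitosis UMIs was 2.08, 4.28, 1.58 and 2.03 at days 0, 1, 3 and 7. The share of spots with member RNA was 19.6%, 41.4%, 48.6% and 32.4% at 1000 UMIs, 56.2%, 79.3%, 86.2% and 73.4% at 4000 UMIs, and 91.4%, 81.6%, 96.6% and 90.5% unthinned. The order of the days was kept at 1000 and 4000 UMIs, and not unthinned, where day 1 was lowest. Depth limits the genes with few UMIs at day 1, above all Orc1 and Dscc1.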

Other observations

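Regions rich in other cell types also held replication RNA. Neutrophil spots had member ratios of 1.68 (1.55 to 1.81) on day 1, 1.72 (1.68 to 1.76) on day 3 and 1.66 (1.56 to 1.77) on day 7, and mature neutrophils are not known to divide. These spots were also rich in macrophage markers, at 2103, 6337 and 3231 CPM on days 1, 3 and 7, against 909, 4049 and 1308 in the whole sections. A spot can hold several cells, and which cells in these spots carried the RNA was not tested. Spots rich in fibroblast/MSC markers gave 1.28 (1.2 to 1.36) before injury, 1.66 (1.56 to 1.77) on day 1, 1.04 (1.01 to 1.07) on day 3 and 1.85 (1.78 to 1.93) on day 7. The day 3 value was close to 1, where macrophage spots had their highest value. At day 7 the fibroblast/MSC spots held 5745 CPM of cartilage markers, against 1748 in the whole section, and the part of this overlap in the ratio was not tested. At day 7, replication over mitosis UMIs in fibroblast/MSC spots was 1.54 (1.45 to 1.63) inside and 2.25 (2.18 to 2.31) outside.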
